A study of Rattus norvegicus with 16 samples.

Results

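The comparison of si*Pax8* with siScramble PCCl3 cells comprised the 8 arrays whose titles pair Pax8 with scramble, out of 16 arrays in the series, and was analysed across all genes. PCCl3 cells are an established line of rat thyroid follicular cells that keep their differentiated functions. si*Pax8* cells were PCCl3 cells transfected transiently with an siRNA against *Pax8*, and siScramble cells were PCCl3 cells transfected in the same way with a scrambled siRNA. Both received Lipofectamine and 10 ng siRNA per ml, were grown in medium with TSH and insulin, and gave RNA 48 hours after transfection. Each of 4 biological replicates was hybridized on an Agilent rat whole genome array with si*Pax8* RNA in Cy5 and on another with si*Pax8* RNA in Cy3, so that 4 arrays of each dye orientation were available. The labels do not say whether the replicates came from separate transfections, and p-values measure the spread between these samples. One cell line was used, transfection was transient, and no label gives the share of cells that took up the siRNA. Less RNA per cell and fewer cells with the RNA cannot be told apart in such bulk samples. The other 8 arrays compared si*Pax8* with cells that the labels call wild type (wt). The study's methods list PCCl3 cells treated with lipofectamine among the samples, and whether the wt cells received it is not settled, which bears on every value against wt cells below. The study's scheme uses the si*Pax8* samples of this comparison for them too, so that values of both comparisons are given side by side and not as independent measurements. With these samples shared, a difference between the comparisons contrasts wt with siScramble cells.

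*Pax8* encodes a paired domain transcription factor that is required for thyroid follicular cells to form and to stay differentiated. In these cells it binds the regulatory regions of genes of hormone synthesis, such as *Tg* (thyroglobulin, the protein on which thyroid hormone is made) and *Slc5a5* (the sodium/iodide symporter, Nis). An siRNA directs the degradation of the mRNA it matches, and a scrambled siRNA shares the transfection and the short double-stranded RNA with it, but not the target.

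Each array had 45018 spots, 1639 of them control spots. The share of spots well above background was 54% to 60.6% for Cy3 and 52% to 59.1% for Cy5. No array had more than 2 saturated spots. The deviations of the replicates from their mean were shared by the arrays of the same number in both dye orientations, with correlations of 0.471, 0.559, 0.579 and 0.331 for replicates 1 to 4. Arrays of different numbers correlated between -0.466 and 0.35, so that the highest unmatched pair (replicate 2 in Cy5 and replicate 1 in Cy3) exceeded the matched pair of replicate 4. Of the thyroid follicular cell markers 13 were examined. *Krt18* was above background on no array and *Krt8* on 1, *Epcam* exceeded background on 6 of 8 arrays for si*Pax8* and on none for siScramble cells, and at least 1 probe of each of the others was above background on 8 arrays in both. The fibroblast markers *Dcn*, *Col3a1*, *Thy1* and *Lum*, the endothelial marker *Pecam1* and the parathyroid marker *Pth* were above background on no array. None of the 4 C cell, 5 fibroblast, 2 endothelial, 3 leukocyte and 1 parathyroid markers measured was called, although at least 1 probe of *Calca*, *Ret*, *Col1a2*, *Cd68*, *Cd14* and *Lyz2* was above background on 8 arrays. Of 3 *Ret* probes 1 passed the threshold (mean of the gene -0.17 ± 0.035). The part of such cells in the results was not tested.

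Values below are log2 ratios of si*Pax8* over siScramble, in which 1 is 2 times the signal and -1 the same change downwards, with both arrays of a replicate averaged. Their direction was read from the dye labels. The study's text counts down- and up-regulated probes the other way round, although the signs of the study's own gene table run as here. The deposited series table holds the control over si*Pax8*, with correlations between -0.998 and -0.993 with these arrays. *Pax8* itself, measured by 1 probe that was well above background on all arrays, had values of -0.58, -0.29, -0.12 and -0.007 in replicates 1 to 4. All 4 values were below 0, by an amount that varied from replicate 1, the lowest, to replicate 4, which was close to 0. Its mean was -0.25 ± 0.25 (SD, n = 4), which is 84.2% of the siScramble level, and it did not pass the threshold (limma, adjusted p = 0.143). Fits without 1 of the replicates gave means between -0.33 and -0.14. Against wt cells the mean was -0.56 (adjusted p = 0.000472), and the difference between the comparisons did not pass the threshold (adjusted p = 0.183), but did so with the replicates paired across the comparisons (adjusted p = 0.00171). The mRNA measured here says nothing about the amount of Pax8 protein. For the protein the study reports an immunoblot with less Pax8 in si*Pax8* than in siScramble and untransfected cells. It chose 48 hours as the best time for silencing and took the RNA from additional transfections.

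Changes were small. Of 41012 probes, 499 were higher in si*Pax8* cells (1.22%) and 368 lower (0.897%) at an adjusted p of 0.005, the study's threshold, by limma. All 867 called probes (2.11%) had one sign in the 4 replicates and 862 had one sign in both dye orientations. The median log2 ratio of the higher probes was 0.39, 0.38, 0.36 and 0.37 in replicates 1 to 4, and that of the lower probes was -0.30, -0.29, -0.30 and -0.32. A call requires that the replicates lie close together, so that these medians had to be alike. With each replicate left out in turn, 84 to 288 probes were higher and 35 to 124 lower, fewest without replicate 2. Only 9 probes had a ratio above 1 and 2 below -1. Across all probes the 5th percentile was -0.15, the 95th was 0.15 and the median was -0.004.

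A RefSeq name could be given to 10768 probes of 8899 genes. A gene was called when each of its probes passed the threshold in one direction, which held for 149 genes that were higher (1.67%) and 117 that were lower (1.31%), 266 in all (2.99%). Loess normalization alone gave 418 probes higher and 179 lower, a share of 70% higher in place of 57.6%. With the signals that Agilent's software had corrected and normalized, 11 probes were higher and 0 lower, against 2990 and 4306 at an unadjusted p of 0.05 and 3514 and 4894 with the values used here. Of the 101 called genes named below, each kept its sign with Agilent's signals and 6 remained called (*Sftpc*, *Scnn1g*, *Gsta1*, *Ccn5*, *Padi1* and *Cryba4*). With these signals, in which background correction and normalization both differ, 16 of the 101 had a ratio over 1.5 times as large, such as *Sftpc* with 3.89 and *Padi1* with 1.49.

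**Figure D1:**
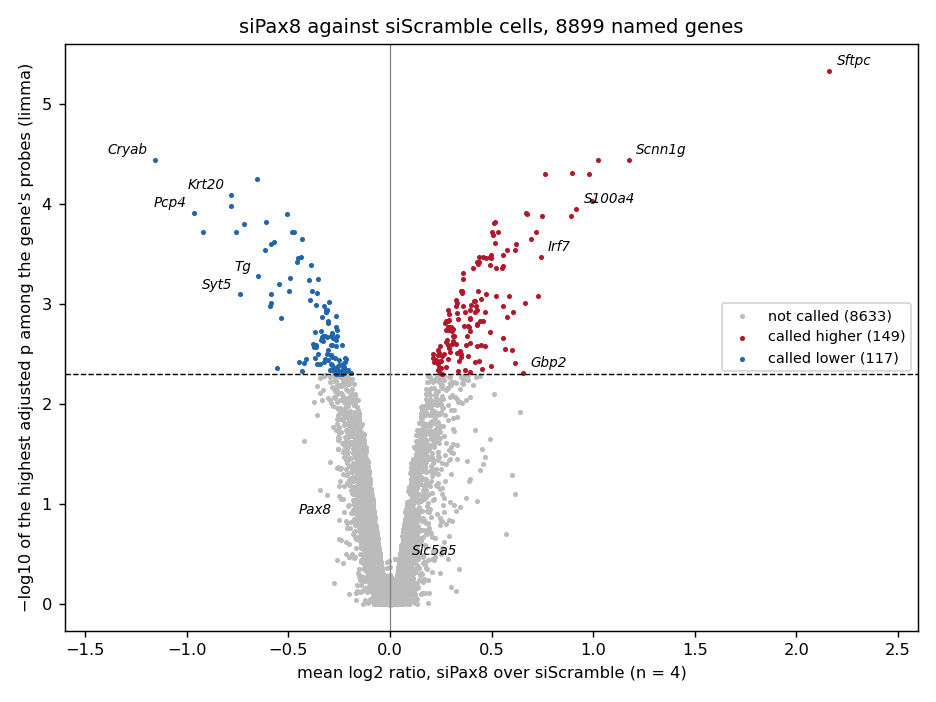
Mean log2 ratio of si*Pax8* over siScramble cells (x axis, 4 replicates) against the −log10 of the highest adjusted p among a gene's probes (y axis, limma) for 8899 named genes; the dashed line is the threshold of 0.005. The 149 genes called higher reach 2.16 (*Sftpc*) and the 117 called lower reach -1.16 (*Cryab*), while *Pax8* (-0.25) and *Slc5a5* (0.073) lie below the line.

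The gene that rose most was *Sftpc*, which encodes surfactant protein C, a secreted protein known from the alveolar cells of the lung. Its log2 ratio was 2.28, 2.08, 2.15 and 2.14 in replicates 1 to 4, a mean of 2.16 ± 0.087 and 4.47 times the siScramble signal (adjusted p = 4.61e-06). *Scnn1g*, the gamma subunit of the epithelial sodium channel, had 1.20, 1.23, 1.20 and 1.07, a mean of 1.18 ± 0.070 or 2.26 times (adjusted p = 3.59e-05). The smallest replicate of either gene stood far from 0. *Gsta1*, a glutathione transferase, followed with 1.04, 0.95, 1.01 and 1.09, a mean of 1.02 ± 0.060 (adjusted p = 3.59e-05).

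Other genes among the 15 with the highest values were *Mgll* (monoglyceride lipase) with a mean of 1.00 ± 0.10, *Gadd45a* (a growth arrest and DNA damage gene) with 0.98 ± 0.078 and *S100a4* (a calcium-binding protein linked to motility) with 0.92 ± 0.097, each over 4 replicates. *C1qtnf1*, a secreted C1q/TNF-related protein, had 0.90 ± 0.062, and *Gcg*, which encodes proglucagon, had 0.89 ± 0.11. *Hprt1*, a purine salvage enzyme often used as a reference gene, was called by each of 4 probes with a mean of 0.75 ± 0.052. Apart from this ranking, a called gene that failed the background condition was *Cryba4*, a lens crystallin, with 0.33 ± 0.042 (adjusted p = 0.000963, lost without replicates 2 and 3), which was above background in siScramble cells on 2 of 8 arrays. The remaining genes of this group were *Ccn5* (0.76), *Irf7* (0.74), *Adm* (0.73), *Ctsh* (0.72), *Lgals3* (0.70) and *Abca1* (0.67). Their adjusted p lay between 4.94e-05 (*Ccn5*) and 0.000822 (*Adm*). All of the 15 but *Adm* stayed below the threshold when any 1 replicate was left out. *Adm* lost its call without replicate 2 (adjusted p = 0.0109) and without replicate 3 (adjusted p = 0.00722).

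The gene that fell most was *Cryab*, which encodes the small heat shock protein alpha-B-crystallin. Its log2 ratio was -1.08, -1.14, -1.14 and -1.27, a mean of -1.16 ± 0.079 or 44.9% of the siScramble signal (adjusted p = 3.59e-05). *Pcp4*, a regulator of calmodulin, had -0.90, -0.98, -0.87 and -1.12, a mean of -0.97 ± 0.11 or 51.2% (adjusted p = 0.000121). *Aspg*, an asparaginase, had -0.75, -0.91, -0.96 and -1.07, a mean of -0.92 ± 0.13 or 52.8% (adjusted p = 0.000188). In each of the 3 genes, replicate 4 was the lowest, the replicate in which *Pax8* was reduced least, and a relation between them was not tested.

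Of the 15 lowest genes 14 are described here. Coagulation genes were among them, namely *F10* (factor X) with -0.78 ± 0.071 and *F3* (tissue factor) with -0.58 ± 0.074. *Krt20*, an epithelial keratin, had -0.78 ± 0.062, *Syt5* (a synaptotagmin of secretory vesicles) had -0.74 ± 0.16 and *Gja4* (the gap junction protein connexin 37) had -0.72 ± 0.084. *Rhbg*, an ammonium transporter, had the narrowest spread of the 14, with -0.66, -0.64, -0.64 and -0.68. Further members were *Tg* (-0.65), *Rbm4b* (-0.62, 2 probes), *Pdzk1ip1* (-0.61), *Akap5* (-0.59) and *Gng8* (-0.59). Calls of 10 of the 14 survived the loss of any 1 replicate. Without replicate 2, *Akap5* (adjusted p = 0.0108), *Gng8* (0.0112) and *Tg* (0.00827) were lost, and without replicate 3, *Akap5* (0.00888), *Gng8* (0.00783) and *Syt5* (0.00842).

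**Figure D2:**
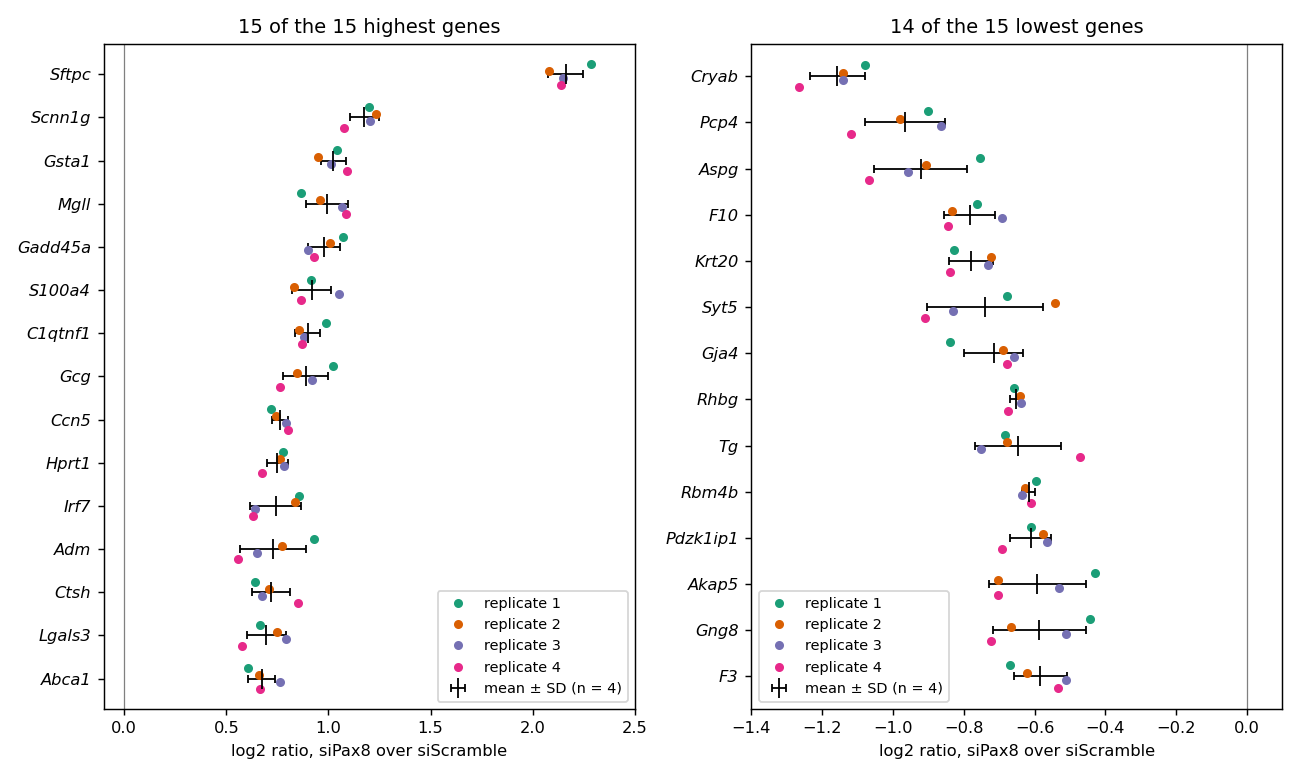
Log2 ratio of si*Pax8* over siScramble (x axis) of the 15 highest and 14 of the 15 lowest called genes, with 1 point per replicate and black bars for the mean ± SD of 4 replicates. All points of a gene lie on one side of 0, with the widest spread for *Syt5* (-0.54 to -0.91) and *Adm* (0.56 to 0.93).

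Of 19 thyroid identity and hormone synthesis genes examined, 1 fell (*Tg*) and 1 rose (*Crym*). Over all named genes 1.31% fell and 1.67% rose, which is the background for the calls of this and the following lists. *Tg* had -0.69, -0.68, -0.75 and -0.47 in replicates 1 to 4, a mean of -0.65 ± 0.12 or 63.9% of the siScramble signal (adjusted p = 0.000528). Replicate 4 showed the smallest reduction and did not overlap with the others. *Crym*, which encodes a protein that binds thyroid hormone in the cytosol, had 0.45, 0.27, 0.46 and 0.33, a mean of 0.38 ± 0.092 (adjusted p = 0.00208), and lost its call whichever replicate was left out (adjusted p up to 0.0144, without replicate 3). The median of the list was -0.052, beside -0.003 over all named genes, and 12 of the 19 lay below 0, as did 52.9% of all named genes.

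Other genes of hormone synthesis did not pass the threshold. *Slc5a5* had 0.15, 0.13, -0.045 and 0.051, a mean of 0.073 ± 0.091 (adjusted p = 0.364), with values on both sides of 0. *Dio1*, the deiodinase that activates thyroid hormone, had -0.28, -0.29, -0.17 and -0.22, and its mean of -0.24 ± 0.057 missed the threshold (adjusted p = 0.0123). All 4 of its values were below 0. *Duox2*, which makes the hydrogen peroxide for iodination, had -0.13 ± 0.094, *Iyd* (iodide recovery) had -0.20 ± 0.079, *Tshr* (the TSH receptor) had -0.15 ± 0.067 and *Foxe1*, another thyroid transcription factor, had -0.18 ± 0.16. *Hhex* had -0.052 ± 0.094. *Nkx2-1*, *Pax2*, *Pax5* and *Rab17* were not analysed here.

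Set beside the wt comparison, the thyroid genes were closer to 0 here. Against wt cells 11 of the 19 were lower and 1 higher, with a median of -0.44, where 9.46% of all named genes were lower and 7.26% higher. *Slc5a5* was -0.61 against wt cells, and the difference between the comparisons passed the threshold (limma, adjusted p = 2.64e-05). The same held for *Dio1* (-0.80 against wt, adjusted p of the difference 0.00023) and *Cdh16* (-0.60, 0.00223), which encodes a cadherin of thyroid and kidney epithelia and had -0.20 ± 0.047 here, called by 1 of its 2 probes. For *Tg* the difference (-0.96 against wt) did not pass (adjusted p = 0.0407). The ratio of *Slc5a5* here changed sign with the dye, as it was -0.075 when Cy5 labelled si*Pax8* and 0.22 when Cy3 did.

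**Figure D3:**
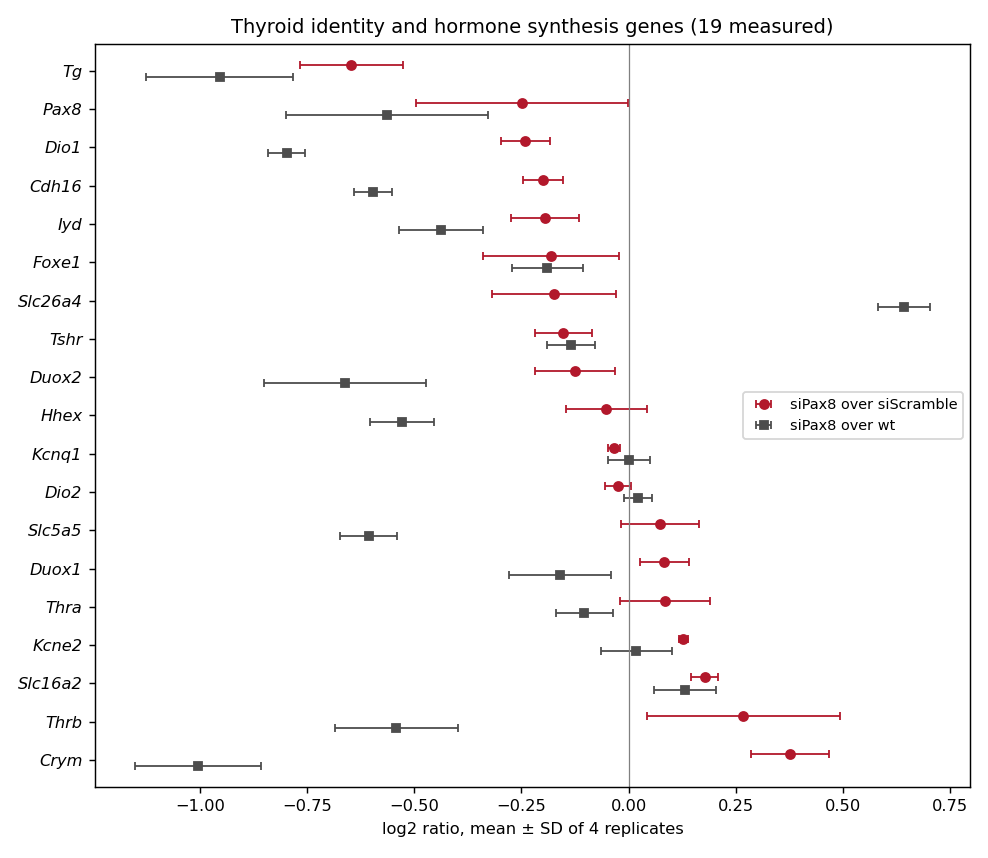
Log2 ratios (x axis, mean ± SD of 4 replicates) of 19 thyroid identity and hormone synthesis genes in si*Pax8* over siScramble cells (red circles) and over wt cells (grey squares). *Tg* is low in both (-0.65 and -0.96), *Slc5a5* only over wt (0.073 and -0.61), and *Crym* lies on opposite sides of 0 (0.38 and -1.01).

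Interferon response genes were the list with the highest median. These genes are switched on by interferons and by sensors of foreign RNA through STAT and IRF factors. All 25 measured members had a mean above 0 (47.1% of all named genes did), their median was 0.23 beside -0.003 over all named genes, and 3 passed the test, all higher. *Irf7*, which encodes a factor that amplifies the interferon response, had 0.86, 0.84, 0.64 and 0.63, a mean of 0.74 ± 0.12 (adjusted p = 0.000334), and kept its call when any replicate was left out. *Gbp2*, a guanylate-binding protein, had 0.95, 0.76, 0.50 and 0.41, a mean of 0.66 ± 0.24 (adjusted p = 0.00483). *Oasl2*, an oligoadenylate synthetase-like protein, had 0.84, 0.66, 0.33 and 0.65, a mean of 0.62 ± 0.21 (adjusted p = 0.00387). *Gbp2* lost its call in each of the 4 reduced fits (adjusted p up to 0.036, without replicate 2), and *Oasl2* lost it without replicates 1, 2 and 4 (up to 0.0306, without replicate 2).

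Several members that did not pass varied widely between replicates. *Mx2*, an antiviral GTPase, had 1.095, 0.85, 0.29 and 0.17 (adjusted p = 0.0507), *Usp18* had 0.74, 0.67, 0.23 and 0.25 (adjusted p up to 0.0334), and *Oas1a* had 0.70, 0.59, 0.20 and 0.093 (adjusted p = 0.0561). In these genes replicates 1 and 2 were high and replicates 3 and 4 low, and *Pax8* was also lower in replicates 1 and 2. The called *Oasl2* did not share this order, with 0.66 in replicate 2 and 0.65 in replicate 4. A relation to the level of *Pax8* was not tested. The list's median was 0.42, 0.21, 0.14 and 0.17. *Cxcl10* (0.086 ± 0.19) and *Irf1* (0.059 ± 0.17) had replicates on both sides of 0. Against wt cells the median of the list was 0.97 and 19 of the 25 were higher. The difference between the comparisons passed the threshold for *Irf7* (-1.62, adjusted p = 5.97e-07), *Oasl2* (-1.63, 3.87e-05) and *Gbp2* (-1.09, 0.000544).

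**Figure D4:**
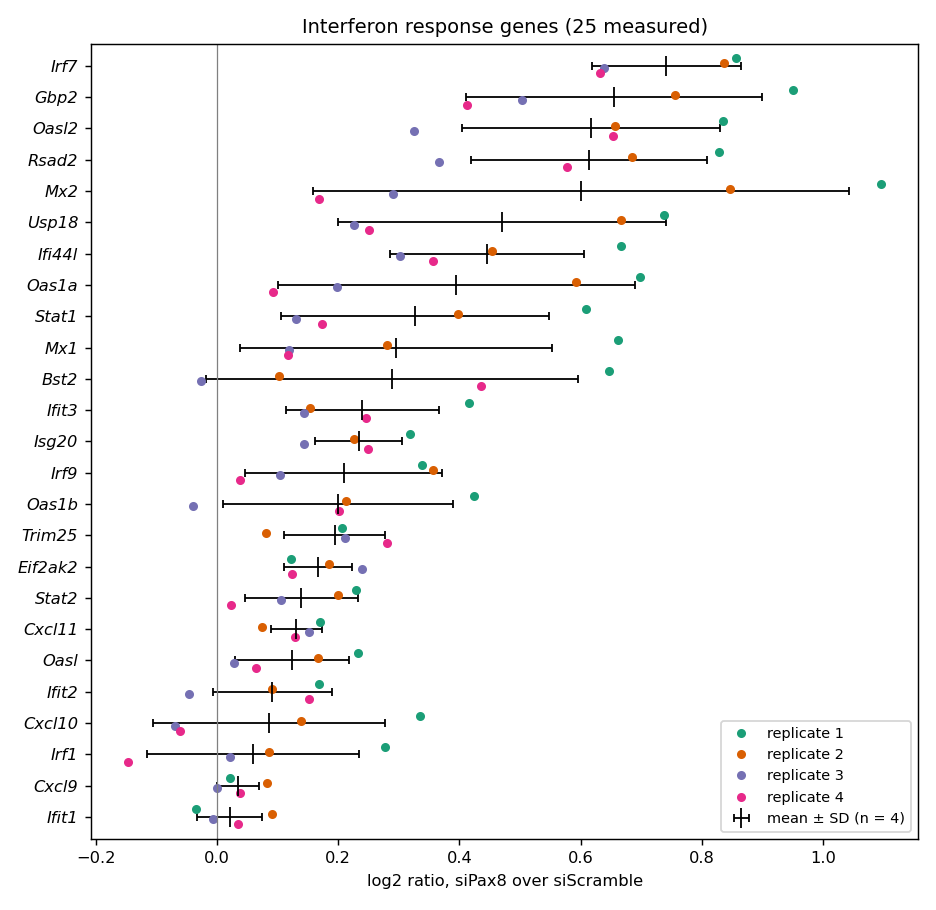
Log2 ratio of si*Pax8* over siScramble (x axis) for 25 interferon response genes, 1 point per replicate with bars for the mean ± SD of 4 replicates. The means run from 0.021 (*Ifit1*) to 0.74 (*Irf7*), and replicate 1 lies highest in most of the upper genes, such as *Mx2* (1.095, against 0.17 in replicate 4).

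The 3 called interferon genes held the core of an interferon-stimulated response element, searched as GAAA, any 2 letters and GAAA, on either strand within 250 bases before the transcription start of the RefSeq annotation. So did *B2m*, the light chain of MHC class I, which rose (0.29 ± 0.046, adjusted p = 0.00183, both probes). Of 115 promoters matched among the 149 genes that rose, 10 held these letters (8.7%), against 1 of 86 among those that fell (1.16%) and 254 of 7236 for all named genes (3.51%). The promoters are shown because they carry this motif, printed 5′ to 3′ along the gene with the matched letters in capitals, from RefSeq in the build GRCr8.
Irf7 (chr1:205800024-205800273, minus strand): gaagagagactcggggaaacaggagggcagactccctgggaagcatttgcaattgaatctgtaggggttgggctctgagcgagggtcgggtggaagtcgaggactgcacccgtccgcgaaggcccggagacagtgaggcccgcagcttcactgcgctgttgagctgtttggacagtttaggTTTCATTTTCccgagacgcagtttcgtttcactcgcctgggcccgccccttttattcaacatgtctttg
Gbp2 (chr2:234005477-234005726, plus strand): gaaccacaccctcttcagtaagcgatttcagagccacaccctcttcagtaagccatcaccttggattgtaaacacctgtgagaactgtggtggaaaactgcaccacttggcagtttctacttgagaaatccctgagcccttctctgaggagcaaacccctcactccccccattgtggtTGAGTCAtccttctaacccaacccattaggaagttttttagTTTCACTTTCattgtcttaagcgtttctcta
Oasl2 (chr12:47383186-47383435, minus strand): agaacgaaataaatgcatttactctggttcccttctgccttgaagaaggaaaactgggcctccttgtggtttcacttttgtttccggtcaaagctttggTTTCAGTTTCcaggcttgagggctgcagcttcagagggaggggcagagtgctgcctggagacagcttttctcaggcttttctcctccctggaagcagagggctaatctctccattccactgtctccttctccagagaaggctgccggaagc
B2m (chr3:129549080-129549329, plus strand): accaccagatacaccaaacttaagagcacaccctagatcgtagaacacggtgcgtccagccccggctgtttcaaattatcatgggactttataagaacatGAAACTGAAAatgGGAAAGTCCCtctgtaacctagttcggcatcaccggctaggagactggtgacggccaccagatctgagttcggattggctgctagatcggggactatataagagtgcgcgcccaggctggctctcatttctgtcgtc
The capitals of *Gbp2* also mark TGANTCA, the AP-1 motif, and those of *B2m* mark an NF-κB motif, searched as GGGA, any letter and TTTCC, on the minus strand of the gene. The interferon response letters lay 69 bases before the start in *Irf7*, 31 in *Gbp2*, 151 in *Oasl2* and 150 in *B2m*. The match is of letters and does not show that a factor binds there.

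Chemokine and cytokine genes moved in both directions, with 3 of 29 measured higher (10.3%) and 1 lower (3.45%). Over all named genes these shares were 1.67% and 1.31%. *Ccl2*, which attracts monocytes, had 0.69, 0.64, 0.61 and 0.37, a mean of 0.58 ± 0.14 (adjusted p = 0.00134). *Csf1*, a macrophage growth factor, had 0.58 ± 0.051, and *Cx3cl1* had 0.40 ± 0.086. *Ccl5*, an interferon-responsive chemokine, fell with -0.42, -0.47, -0.24 and -0.60, a mean of -0.43 ± 0.15 (adjusted p = 0.00466). Only *Csf1* kept its call in every reduced fit. *Ccl2* lost it without replicates 1, 2 and 3 (adjusted p up to 0.0152, without replicate 2), and *Ccl5* and *Cx3cl1* lost it without any of the 4 (up to 0.0356 and 0.0239, both without replicate 2).

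Of 22 antigen presentation genes measured, 2 rose and 1 fell. The MHC class I genes *B2m* and *RT1-CE1* (0.29 ± 0.071) rose, and *Cd74*, the class II invariant chain, fell with -0.33, -0.29, -0.27 and -0.37, a mean of -0.32 ± 0.045 (adjusted p = 0.00121). The median of the list was -0.004. The class II genes *RT1-Da* (-0.26 ± 0.032) and *RT1-DMa* (-0.25 ± 0.081) had values below 0, with 1 of 2 probes of *RT1-Da* passing the threshold. *Cd74* and *RT1-CE1* lost their calls in each reduced fit (adjusted p up to 0.0138 and 0.0302, both without replicate 2), and *B2m* in all but that without replicate 4 (up to 0.0194, without replicate 2). Neither the 9 NF-κB pathway genes nor the 13 Pax partner and chromatin genes measured held a called gene, and among the latter *Ctcf* had -0.056 ± 0.042 and *Sp1* 0.046 ± 0.054.

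Immediate early and AP-1 genes, which respond within minutes to growth factors and stress, held the most calls in proportion to size of the 32 lists, 6 higher and 4 lower of 28 measured. *Dusp6*, a phosphatase of ERK, rose by 0.64, 0.56, 0.50 and 0.39 (mean 0.52 ± 0.11, adjusted p = 0.000822), and *Jun* by 0.56, 0.47, 0.32 and 0.52 (mean 0.47 ± 0.10, adjusted p = 0.00121). *Fosl2* (0.29 ± 0.031), *Dusp4* (0.29), *Nr4a2* (0.27) and *Junb* (0.26) also rose. In contrast *Fos* fell, with the narrow range of -0.25, -0.20, -0.19 and -0.25 (mean -0.22 ± 0.032, adjusted p = 0.0038). *Dusp2* (-0.38 ± 0.10), *Batf3* (-0.36 ± 0.059) and *Atf3* (-0.29 ± 0.077) fell with it. None of *Dusp6*, *Jun*, *Fosl2*, *Fos*, *Dusp2*, *Batf3* and *Atf3* kept its call in all reduced fits, the highest adjusted p being 0.0342 (*Atf3*, without replicate 2). The AP-1 letters TGANTCA were found in 11 of 115 promoters of genes that rose (9.57%), 3 of 86 of those that fell (3.49%) and 434 of 7236 of all (6%). That of *Scnn1g* is shown, with the AP-1 letters in capitals, as the gene with the largest change among the 11.
Scnn1g (chr1:185735975-185736224, plus strand): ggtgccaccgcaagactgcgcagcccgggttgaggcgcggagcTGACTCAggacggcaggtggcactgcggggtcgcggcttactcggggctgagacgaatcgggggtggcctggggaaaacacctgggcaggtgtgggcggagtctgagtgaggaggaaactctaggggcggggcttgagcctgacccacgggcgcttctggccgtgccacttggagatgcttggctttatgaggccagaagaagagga

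Genes of DNA replication and mitosis lay below 0 in nearly all cases, by small amounts. Of 25 DNA replication and mitosis genes measured 24 had a negative mean, 17 of them in all 4 replicates, with a list median of -0.16. Over all named genes 52.9% had a negative mean, which is the background for this and the following lists. Those that fell were the mitotic cyclins *Ccnb2* (-0.48, -0.43, -0.31 and -0.27, mean -0.37 ± 0.10, adjusted p = 0.00265), *Ccnb1* (-0.33 ± 0.056, both probes) and *Ccna2* (-0.30 ± 0.036, both probes). *Aurkb*, a mitotic kinase, was the exception and rose (0.36 ± 0.044, adjusted p = 0.000772). *Birc5* (-0.34 ± 0.12, adjusted p = 0.00547), *Kif2c* (-0.27, 0.00502) and *Aurka* (-0.21, 0.00531) lay close to the threshold. Leaving out replicate 2 ended the calls of *Ccnb1*, *Ccnb2*, *Ccna2* and *Aurkb* (adjusted p of 0.0122, 0.0244, 0.0337 and 0.0109). *Ccnb2* was also lost without replicates 1 and 3, and *Ccnb1* and *Ccna2* without any of the 4.

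DNA repair genes gave a similar picture, with 21 of 22 below 0, a median of -0.098 and 1 call. It was *Fancd2*, of the Fanconi anaemia pathway, with -0.20, -0.32, -0.28 and -0.21 (mean -0.25 ± 0.058, adjusted p = 0.00404). That value came mostly from one orientation, with -0.48 for si*Pax8* in Cy3 and -0.029 in Cy5, and the call was lost in each reduced fit (adjusted p up to 0.0306, without replicate 2). *Brca1*, a homologous recombination gene, had -0.18, -0.22, -0.09 and -0.14, a mean of -0.16 ± 0.054 that missed the threshold (adjusted p = 0.0212). Among 18 CDK inhibitors and p53 targets, *Gadd45a* and the CDK4/6 inhibitor *Cdkn2b* rose. *Cdkn2b* had 0.64, 0.53, 0.33 and 0.32, a mean of 0.45 ± 0.16 (adjusted p = 0.00442), and lost its call in each reduced fit (up to 0.034, without replicate 2). Of 27 G1 cyclin and growth factor genes 18 lay above 0, and *Igfbp5*, a binding protein of insulin-like growth factors (0.61 ± 0.15), and the receptor *Fgfr1* (0.44 ± 0.048) rose. The G1 cyclin *Ccnd1* (0.39 ± 0.094) was called by 1 of 2 probes, and *Ccnd2* (0.38 ± 0.25) was not called. *Igfbp5* was lost without replicates 2 (adjusted p = 0.014) and 3 (0.0116), and *Fgfr1* was kept.

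Endoplasmic reticulum chaperones, which fold secreted proteins such as thyroglobulin, had the lowest median of the 32 lists (-0.16, as had DNA replication and mitosis when rounded), with 4 of 19 lower and 1 higher. *Hspa5* (BiP) had -0.40, -0.36, -0.43 and -0.37, a mean of -0.39 ± 0.032 (adjusted p = 0.000401). The protein disulfide isomerases *Pdia6* (-0.38 ± 0.054) and *Pdia4* (-0.31 ± 0.081) fell with it, and so did *Creld2* (-0.24 ± 0.058, adjusted p = 0.00497), whose ratio was -0.45 with si*Pax8* in Cy3 and -0.029 in Cy5. *Ddit3* (CHOP), a transcription factor of the unfolded protein response, rose (0.50, 0.34, 0.41 and 0.32, mean 0.39 ± 0.084, adjusted p = 0.00142). *Hspa5* lost its call only without replicate 2 (adjusted p = 0.0062), *Pdia6* and *Ddit3* without replicates 2 (0.0103 and 0.0131) and 3 (0.00527 and 0.0133), and *Pdia4* and *Creld2* in each reduced fit (up to 0.0214 and 0.0296).

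Cholesterol synthesis and uptake genes had a median of -0.12, with 21 of 26 below 0. The one that fell was *Cyp51*, a demethylase of the sterol pathway, with -0.33, -0.34, -0.23 and -0.19 (mean -0.27 ± 0.075, adjusted p = 0.00467). It too depended on the dye, with -0.47 in Cy3 and -0.077 in Cy5, and was lost in each reduced fit (adjusted p up to 0.0355, without replicate 2). *Sqle* (-0.33 ± 0.12), another enzyme of the pathway, did not pass. The promoter of *Cyp51* held GCGTGAC, the core of the Pax2/5/8 paired domain motif, 144 bases before the start, and is shown for that reason. The only other gene that fell with these letters was *Stard3nl*, so that they occurred in 2 of 86 promoters of genes that fell (2.33%), in 0 of 115 of genes that rose and in 187 of 7236 of all (2.58%).
Cyp51 (chr4:30991443-30991692, plus strand): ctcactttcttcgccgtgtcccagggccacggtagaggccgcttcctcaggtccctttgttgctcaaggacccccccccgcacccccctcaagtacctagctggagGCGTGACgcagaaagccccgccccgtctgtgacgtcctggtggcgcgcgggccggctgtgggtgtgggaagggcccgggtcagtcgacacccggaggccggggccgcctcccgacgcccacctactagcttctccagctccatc

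Nucleotide synthesis genes had 18 of 21 below 0 and a median of -0.13, and *Mthfd1*, a folate enzyme, fell (-0.38, -0.35, -0.32 and -0.37, mean -0.35 ± 0.028, adjusted p = 0.000564, lost without replicate 2 at 0.00933). *Hprt1*, of the salvage pathway, was the exception above. Of 42 amino acid synthesis and transport genes *Aspg*, *Oat* (ornithine aminotransferase, -0.54 ± 0.074) and the glutamine transporter *Slc38a3* (-0.37 ± 0.086) fell, and *Sat1*, of polyamine breakdown, rose (0.44 ± 0.073). Without replicate 2 the calls of *Oat* (0.00682), *Slc38a3* (0.0177) and *Sat1* (0.0107) were lost, and those of *Slc38a3* (0.0162) and *Sat1* (0.00572) also without replicate 3. No ribosomal protein gene was called among 63, of which 53 lay below 0 with a median of -0.044 (-0.030, -0.056, -0.003 and -0.093 in replicates 1 to 4). The mitochondrial respiratory chain likewise held no call among 36 genes and had a median of -0.029.

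Lysosomal genes lay above 0 in 22 of 29 cases (47.1% over all named genes), with a median of 0.15. Cathepsins, proteases of which some release thyroid hormone from thyroglobulin, led them. *Ctsh* had 0.64, 0.71, 0.68 and 0.85 (mean 0.72 ± 0.092, adjusted p = 0.000188), *Ctsc* had 0.46, 0.62, 0.39 and 0.32 (mean 0.45 ± 0.13, adjusted p = 0.00257), and *Ctsa* was called by all of its 3 probes (0.30 ± 0.040). *Lipa*, the lysosomal acid lipase, rose too (0.28 ± 0.052). *Lrp2* (megalin), which takes up thyroglobulin, fell (-0.24, -0.36, -0.38 and -0.48, mean -0.37 ± 0.097, adjusted p = 0.0027). Only *Ctsh* was called in every reduced fit. *Ctsc* was lost without replicates 1, 2 and 3, *Lrp2* without 2, 3 and 4, and *Ctsa* and *Lipa* without any, with adjusted p up to 0.0157, 0.0242, 0.0204 and 0.0183.

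Glycolysis and hypoxia genes had 23 of 28 above 0, a median of 0.11 and 3 calls. *Adm* (adrenomedullin, a vasodilator peptide) had 0.93, 0.77, 0.65 and 0.56, and the neuronal enolase *Eno2* had 0.42, 0.37, 0.52 and 0.67 (mean 0.49 ± 0.13, adjusted p = 0.00191). *Adm* was highest in replicate 1 and *Eno2* in replicate 4. *Slc2a1*, the glucose transporter GLUT1, had 0.34 ± 0.091 (adjusted p = 0.00292). *Eno2* was lost without replicates 1, 2 and 3 and *Slc2a1* without any, with adjusted p up to 0.0165 and 0.0177, both without replicate 3, and *Adm* as given above.

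Matrix and cytoskeleton lists held more genes that rose than fell, around medians near 0. Of 29 extracellular matrix and integrin genes 6 rose and 1 fell, with a median of 0.010. *Sparc*, a collagen-binding protein, had 0.37, 0.64, 0.60 and 0.61 (mean 0.56 ± 0.13, adjusted p = 0.00104), the membrane protease *Mmp14* had 0.45, 0.44, 0.51 and 0.57 (mean 0.49 ± 0.061, adjusted p = 0.000334), and *Fn1* (fibronectin) had 0.44 ± 0.084 over 2 probes. *Bgn* (0.43), *Timp2* (0.39) and *Lamb2* (0.35) rose, and the laminin-binding integrin *Itgb4* fell (-0.32). *Mmp14* alone among *Sparc*, *Mmp14*, *Fn1*, *Bgn* and *Timp2* kept its call in every reduced fit, the others reaching adjusted p of 0.012, 0.0168, 0.0144 and 0.0354 without replicate 2. The ratio of *Mmp14* depended on the dye, with 0.26 for si*Pax8* in Cy5 and 0.73 in Cy3, and its call was lost with Cy5 alone.

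YAP target and actin cytoskeleton genes gave 4 higher and 1 lower of 28. *S100a4* had 0.92, 0.83, 1.05 and 0.87 and was called by both probes (mean 0.92 ± 0.097, adjusted p = 0.000111). Its relative *S100a6* (0.62 ± 0.087), the YAP target *Ccn2* (0.36 ± 0.031) and the filament protein *Vim* (0.25 ± 0.052) rose, *Vim* with 0.40 for si*Pax8* in Cy5 and 0.094 in Cy3. *Tmod1*, which caps actin filaments, fell (-0.31, -0.43, -0.43 and -0.49, mean -0.41 ± 0.074, adjusted p = 0.00356, both probes). *S100a4* was called in every reduced fit, whereas *S100a6* was lost without replicate 2 (0.00517), *Ccn2* without replicates 2 (0.00871) and 3 (0.00613), *Tmod1* without replicates 1, 2 and 3 (up to 0.0252) and *Vim* without any (up to 0.0265).

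Of 18 genes of cornified epithelium, such as skin, 3 rose and none fell, *Padi1* (0.46, 0.48, 0.55 and 0.52, mean 0.50 ± 0.039, adjusted p = 0.000188), *Padi3* (0.60, 0.51, 0.50 and 0.52, mean 0.53 ± 0.047, adjusted p = 0.000188) and *Krt14* (0.47, 0.53, 0.51 and 0.54, mean 0.51 ± 0.030, adjusted p = 0.000154). *Padi1* and *Padi3* encode enzymes that turn arginine into citrulline in skin proteins, and *Krt14* is a keratin of basal epithelial cells. All 3 stayed below the threshold in every reduced fit. Of 32 adhesion and junction genes the adhesion molecules *Alcam* (0.66 ± 0.13, both probes) and *Ncam1* (0.37 ± 0.12) and the junction protein *Jup* (0.32 ± 0.036) rose and none fell. *Alcam* and *Jup* were lost without replicates 2 (adjusted p = 0.0102 and 0.0123) and 3, and *Ncam1* without replicates 2, 3 and 4 (up to 0.0353).

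Peroxide defence and redox genes, which thyroid cells use against the hydrogen peroxide of hormone synthesis, held 4 that rose of 32 and none that fell by limma, with a median of 0.006. Beside *Gsta1* these were *Gstm2* (0.35 ± 0.041), *Gstp1* (0.33 ± 0.054) and *Txnip* (0.31 ± 0.057). *Gstp1* was 0.52 when Cy5 labelled si*Pax8* and 0.15 when Cy3 did, and *Txnip* 0.49 and 0.13. *Gsta1* was kept in every reduced fit, and *Gstm2*, *Gstp1* and *Txnip* reached adjusted p of 0.0102, 0.0152 and 0.0173 without replicate 2.

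Channel and transport lists held few calls. Of the ion channel genes 3.33% were higher and 3.33% lower, and of the vesicle genes 3.12% and 6.25%. Over all named genes 1.67% were higher and 1.31% lower. Among 30 ion channel and epithelial sodium transport genes examined *Scnn1g* rose and *Fxyd5*, a regulator of the sodium pump (-0.63, -0.47, -0.50 and -0.73, mean -0.58 ± 0.12, adjusted p = 0.000794), fell. Of 32 vesicle transport and polarity genes *Myo5b*, the motor of recycling vesicles, had -0.52, -0.50, -0.50 and -0.51, with the smallest spread of the called genes named here (mean -0.51 ± 0.010, adjusted p = 0.000126). *Mlph*, which links vesicles to myosin V, fell with it (-0.50 ± 0.092), and the unconventional myosin *Myo7a* rose (0.35 ± 0.040). *Dab2ip*, a Ras GTPase-activating protein, had -0.30 ± 0.080 and was called by 1 of 2 probes (adjusted p up to 0.0086). *Myo5b* and *Scnn1g* were called in every reduced fit. *Mlph* was lost without replicate 2 (0.0101), and *Fxyd5* and *Myo7a* without replicates 2 (0.00553 and 0.00911) and 3.

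The signalling and remaining lists held calls as follows, where 2.99% of all named genes were called. Of the cyclic AMP genes 3.45% were higher and 6.9% lower, and of the inositol lipid genes 6.25% were lower. Among the 29 genes of the cyclic AMP list *Pcp4* and the calmodulin-dependent kinase *Camkk2* (-0.28 ± 0.047) fell. Both are calmodulin genes, so that the 6.9% is not a share of cyclic AMP genes in the strict sense. The phosphodiesterase *Pde1a* rose (0.37, 0.49, 0.62 and 0.79, mean 0.57 ± 0.18, limma adjusted p = 0.00282). Of 32 inositol lipid genes the phospholipases *Plcd4* (-0.39 ± 0.066) and *Plcg2* (-0.32 ± 0.042) fell. *Tgfb3* rose (0.49 ± 0.070) as the single call among 27 TGF-beta and BMP genes, *Bcl2l11* (BIM) fell (-0.28 ± 0.058) as that among 34 apoptosis genes, *Cryab* was the single call among 18 heat shock genes and *Sftpc* that among 18 surfactant and secretory genes. Every one of *Camkk2*, *Pde1a*, *Plcd4*, *Plcg2*, *Tgfb3* and *Bcl2l11* lost its call without replicate 2, with adjusted p from 0.00686 (*Tgfb3*) to 0.0224 (*Bcl2l11*).

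**Figure D5:**
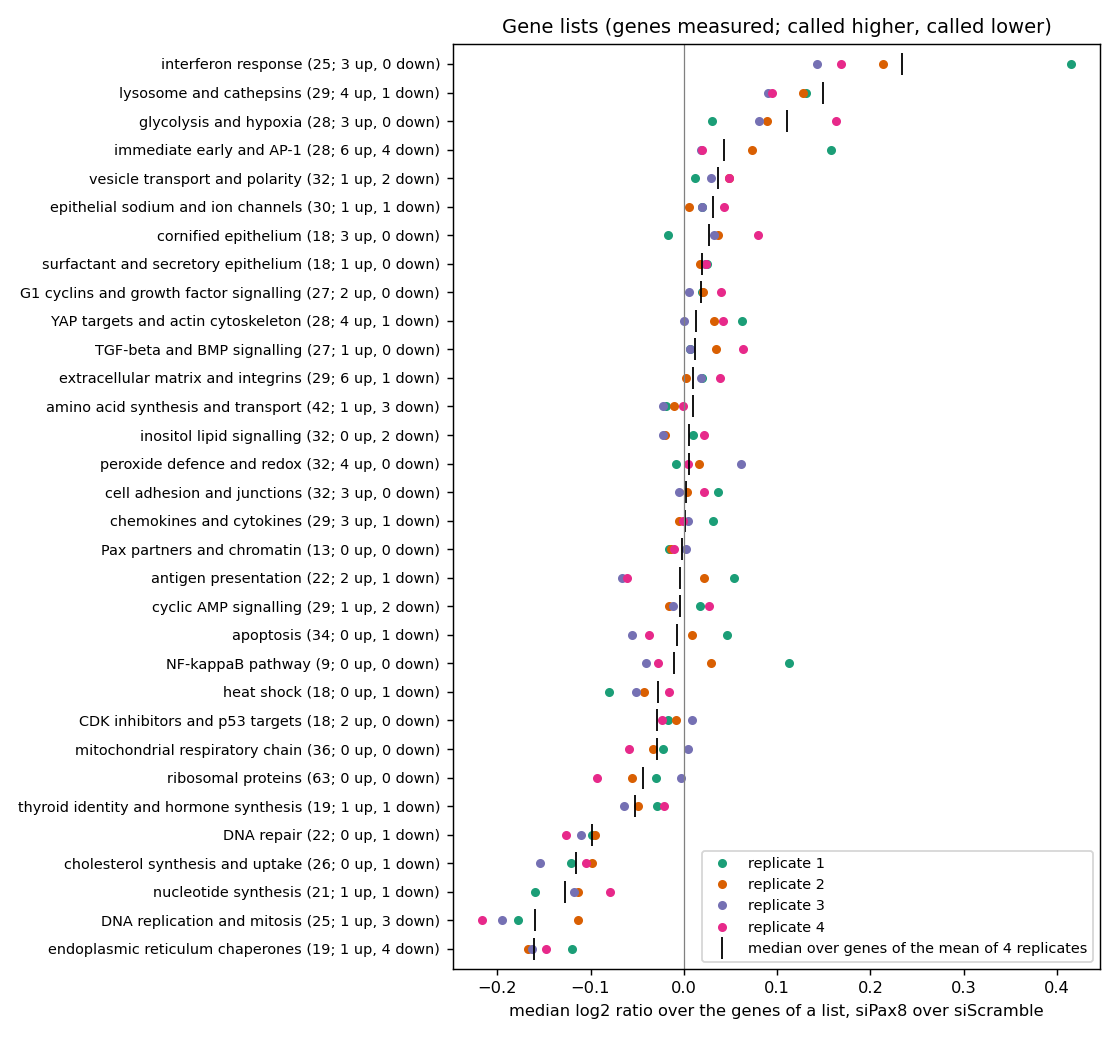
Median log2 ratio of si*Pax8* over siScramble (x axis) over the genes of 32 lists, with 1 point per replicate and a black tick for the median of the 4-replicate means; genes measured and called are given beside each name. The medians run from -0.16 (endoplasmic reticulum chaperones) to 0.23 (interferon response), where replicate 1 lies apart at 0.42.

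The siScramble and the wt comparison differed in 732 probes that lay higher in the former (1.78%) and 677 that lay lower (1.65%). This fit did not pair the replicates, and the shared si*Pax8* samples make it a contrast of wt with siScramble cells. These 1409 probes became 368 to 1063 when a replicate number was left out of both, and 2308 with the replicates paired across the comparisons. A set of 7 named genes was called in both with opposite directions. *Ptges*, which makes prostaglandin E2, was 0.44, 0.45, 0.47 and 0.30 here (mean 0.41 ± 0.075, adjusted p = 0.000937) and -0.69 against wt cells. *Crym* (0.38 and -1.01), *Gstm2* (0.35 and -0.26) and *Pex5l* (0.32 and -0.28) behaved likewise. *Fos* (-0.22 and 0.86), *Atf3* (-0.29 and 0.54) and *Ccl5* (-0.43 and 1.20) lay the other way round. For each of the 7 the difference passed the threshold (adjusted p from 5.73e-07 for *Fos* to 0.000172 for *Gstm2*). Their selection by opposite calls on the same values made this likely beforehand, so that it adds no separate support. *Ccl2* rose in both, by 0.58 and 2.39, with a difference of -1.82 (adjusted p = 5.73e-07). *Ptges*, *Pex5l* and *Gstm2* lost their calls here without replicate 2 (adjusted p = 0.0126, 0.0162 and 0.0102), as did *Crym*, *Fos*, *Atf3* and *Ccl5* (0.0101 to 0.0356).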

How the data were processed

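Each of the 8 arrays was an Agilent rat whole genome 2-colour array of 1 biological replicate. The authors deposited the scanner output, with mean spot intensity and local background intensity per channel, and a series table of processed log2 ratios. The file headers give Feature Extraction 10.1.1.1 and a scan resolution of 5 micrometres, which differ from the version and resolution in the study's methods. Scanner columns of log ratios and their p-values were not used.

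Intensities were corrected by normexp (offset 50), normalized by loess within arrays and by quantiles between arrays with limma 3.58.1 in R 4.3.3 (statmod 1.5.0, data.table version 1.17.8). Control spots were left out and outlier spots set to missing, spots of a probe were averaged, ratios were turned to si*Pax8* over control by the dye labels, and the dye-swapped arrays of a replicate were averaged (n = 4). limma (lmFit and eBayes) tested 41012 probes against 0 with Benjamini-Hochberg adjustment, at the study's threshold of 0.005. The difference between the comparisons was fitted to the 8 averaged values, without pairing of the replicates unless stated, although both comparisons share the si*Pax8* samples. The number of arrays limits the precision, and the offset draws ratios of dim spots towards 0. The procedure was tested on simulated data.

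Probes were named only through the RefSeq accession in the files, matched to RefSeq genes of GRCr8, which named 10768 probes of 8899 genes and left 30244 probes unnamed. A gene's ratio is the mean over its probes and its adjusted p the highest among them. Each SD is over 4 replicates. Genes named were *Pax8*, the 15 highest and 15 lowest called genes well above background in both channels on at least 4 arrays (genes failing only that condition apart), genes the study discusses, up to 5 called genes of each list with uncalled examples, and the genes called here that differed most between, or had opposite directions in, the comparisons. A few genes are not reported here and were left out of the lists. Members and lists were chosen with earlier results of these data known.

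Deviations from the mean correlated between the arrays of a replicate number in both dye orientations (0.331 to 0.579 over 14398 probes, against -0.466 to 0.35 for unmatched numbers); these arrays hold the same extracts. The columns of the deposited table had medians of 0.000983, -0.000736, 0.00198 and 0.00232 (replicates 1 to 4, Cy5 for si*Pax8*), then 0.00451, 0.00362, 0.00612 and 0.00556 (Cy3), the study's methods naming loess within and quantile normalization between arrays. Alternatives were no background correction, Agilent's processed signals, loess alone, the deposited log2 values, the 8 arrays with replicate block, dye term or slide, either dye orientation, both comparisons in 1 fit, a filter on dim probes, a threshold of 0.05 and each replicate left out.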

Additional observations from a re-analysis of the deposited data

Results flagged for a closer look

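In 4 of 142 values checked, 1 replicate stood apart from the other 3 by more than Dixon's 95% critical value for 4 samples allows, and chance alone does so in about 1 of 20 groups. *Hprt1* had 0.673 in replicate 4 against 0.777, 0.765 and 0.784 in the others. *Ptges* had 0.302 in replicate 4 against 0.44, 0.446 and 0.466. *Sparc* had 0.37 in replicate 1 against 0.64, 0.603 and 0.61. *Txnip* had 0.393 in replicate 3 against 0.278, 0.285 and 0.277. In each gene all 4 values were above 0.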

How the results depend on the processing

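The numbers of probes called depended on the processing, and so did some list medians. Against 499 higher and 368 lower probes, Agilent's processed signals gave 11 and 0 (2990 and 4306 at an unadjusted p of 0.05), loess alone gave 179 lower, si*Pax8* in Cy5 alone 140 and 75, and si*Pax8* in Cy3 alone 1715 and 1870. The 8 arrays with a replicate block gave 893 and 811, with replicate block and dye term 1114 and 1082, and with slide as a random block 1206 and 1225. Both comparisons in 1 fit gave 885 and 867, and a threshold of 0.05 gave 1702 and 1971. Leaving out 1 replicate gave 84 to 288 higher and 35 to 124 lower probes, fewest without replicate 2, *Pax8* ratios of -0.329 to -0.14, and 368 to 1063 probes that differed between the comparisons, against 1409, which rose to 2308 with the replicate block across comparisons. No background correction (689 and 483), the deposited table (414 and 322) and the filter on dim probes (463 and 291) stayed within 1.5 times. Ratios near 0 changed sign for *Slc5a5* (-0.075, Cy5 only) and *Sp1* (-0.009, Cy3 only). Of the 32 list medians, 13 moved by at least the SD of their replicate medians with Agilent's signals. The filter on dim probes also moved 13, si*Pax8* in Cy5 alone 12 and si*Pax8* in Cy3 alone 11. With si*Pax8* in Cy5 alone 36 of the 101 called genes named stayed called, and in Cy3 alone 93. All 101 had one sign in both orientations. The orientations also lay apart in *S100a6* (0.325 in Cy5 and 0.909 in Cy3), *Dusp6* (0.291 and 0.755), *Cx3cl1* (0.159 and 0.632), *Ccnb1* (-0.146 and -0.511) and *Syt5* (-1.05 and -0.43). Of the 101 called genes named, 31 stayed called whichever replicate was left out. The cause was not tested. Dim probes are limited by signal over background.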
